A study of Mus musculus with 5 samples.

Results

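Mitochondrial ribosomal protein genes are nuclear genes for the proteins of the ribosome inside mitochondria. They were chosen by symbol, as Mrpl or Mrps followed by a number and at most 1 letter, and by no measured value. This gave 76 of the 19699 gene entries, and the 4 pseudogene entries with such symbols were left out. The RNA came from airway tissue, trachea and lung included, taken from mouse embryos at E13.5. The mutants (2 libraries) are labelled as a Prmt5 knockdown, while the growth protocol describes C57 mice with the gene knocked out in lung epithelial cells only, and the design text writes Shh before Prmt5 in the mutant genotype. The controls (3 libraries) were littermates labelled WT. What the Shh allele is, whether the controls carry it and whether a library held 1 embryo or several is not stated, so p-values rest on the spread among 5 libraries, and part of it could be technical.

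The mitochondrial ribosome makes the few proteins that mitochondrial DNA encodes, all of them parts of the respiratory chain and ATP synthase. Its RNA is made in the mitochondrion, but its proteins are made in the cytosol and imported, so that a small and a large subunit are assembled from products of the 2 genomes. Part of these proteins descend from bacterial ribosomal proteins and part were added in mitochondria. Prmt5 encodes an enzyme that puts symmetric dimethyl groups on arginines of histones and splicing proteins.

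Read numbers recovered from the FPKM values came to 15652503 to 18682463 reads per library. Each of the 76 genes had 234 to 1499 reads in every library. Prmt5 was at 23.7 and 20.1 FPKM for the mutants, against 28.7, 26.4 and 25.8 FPKM in the controls, and did not pass the test (log2 change -0.29, SE 0.12, limma adjusted p = 0.234). All 9 epithelial and all 7 mesenchymal markers checked, Nkx2-1 and Epcam among them, were present in every library. Marker sums differed between the groups for 5 of 10 cell types checked. Summed marker FPKM of skeletal muscle was 68.8 and 158 in the mutants and 306 to 719 in the controls. The sums for mesenchyme (1529 and 1271 against 1591 to 2077), airway smooth muscle, cartilage and neurons were also below all controls, while those of epithelium, endothelium, erythroid cells, heart muscle and macrophages overlapped. A sum is weighted to the most abundant markers. Of the 7 mesenchymal markers 1 passed the test as higher and 1 as lower (0.989% and 1.37% of all genes). Of 7 skeletal muscle markers tested 6 passed as lower, with a median log2 change of -2.39. Passing as lower were also 2 of 2 cartilage markers tested, 1 of 4 of airway smooth muscle and 1 of 5 of neurons. Of heart muscle, endothelium, erythroid cells and macrophages 0 passed. The 9 epithelial markers had a median log2 change of -0.59, with 1 passing as lower. Summed FPKM of 4 Y-linked genes was 31.5 and 27.1 in the mutants and 23.0, 18.8 and 4.49 in the controls. The part of tissue make-up and of sex in the results below was not tested, apart from a fit with the Y-linked sum as a covariate. That sum was higher in both mutants than in all controls, so the fit cannot separate it from genotype. In bulk tissue, a change in the number of cells of a type and a change in RNA per cell cannot be told apart.

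The genes of the mitochondrial ribosome were expressed above most genes of this tissue, with mean levels over the 5 libraries from 4.01 to 112 FPKM and a median of 20.1 FPKM. The median member stood at percentile 77.8 of the 12838 genes tested. Mrpl42, a large subunit protein gene with no bacterial counterpart, was the highest at 112 FPKM, followed by Mrpl54 at 72.8, Mrps16 at 68.6 and Mrpl52 at 55.4 FPKM. The lowest were Mrpl33 at 4.01, Mrps35 at 4.29, Mrps25 at 4.87 and Mrps10 at 5.19 FPKM. FPKM divides by gene length, and these 8 genes differed widely in the exon length that the authors' values imply, from 566 bases for Mrps16 to 8631 bases for Mrps35. The 27.9-fold range of FPKM among the members went with a range of total reads of only 4.64-fold, from 1364 reads for Mrps18c to 6327 reads for Mrpl50. Across the 76 genes, Spearman's rho of mean FPKM with length was -0.85, and that of total reads with length was 0.28. Both are descriptions across genes of the same 5 libraries, and FPKM contains the length by construction. Within a gene the length is the same in all 5 libraries and cancels from a ratio of FPKM, but not from a change of log2(FPKM + 1), which is smaller for long genes of low FPKM: Mrpl33 had a ratio of means of 1.18 and a log2 change of 0.19.

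**Figure D1:**
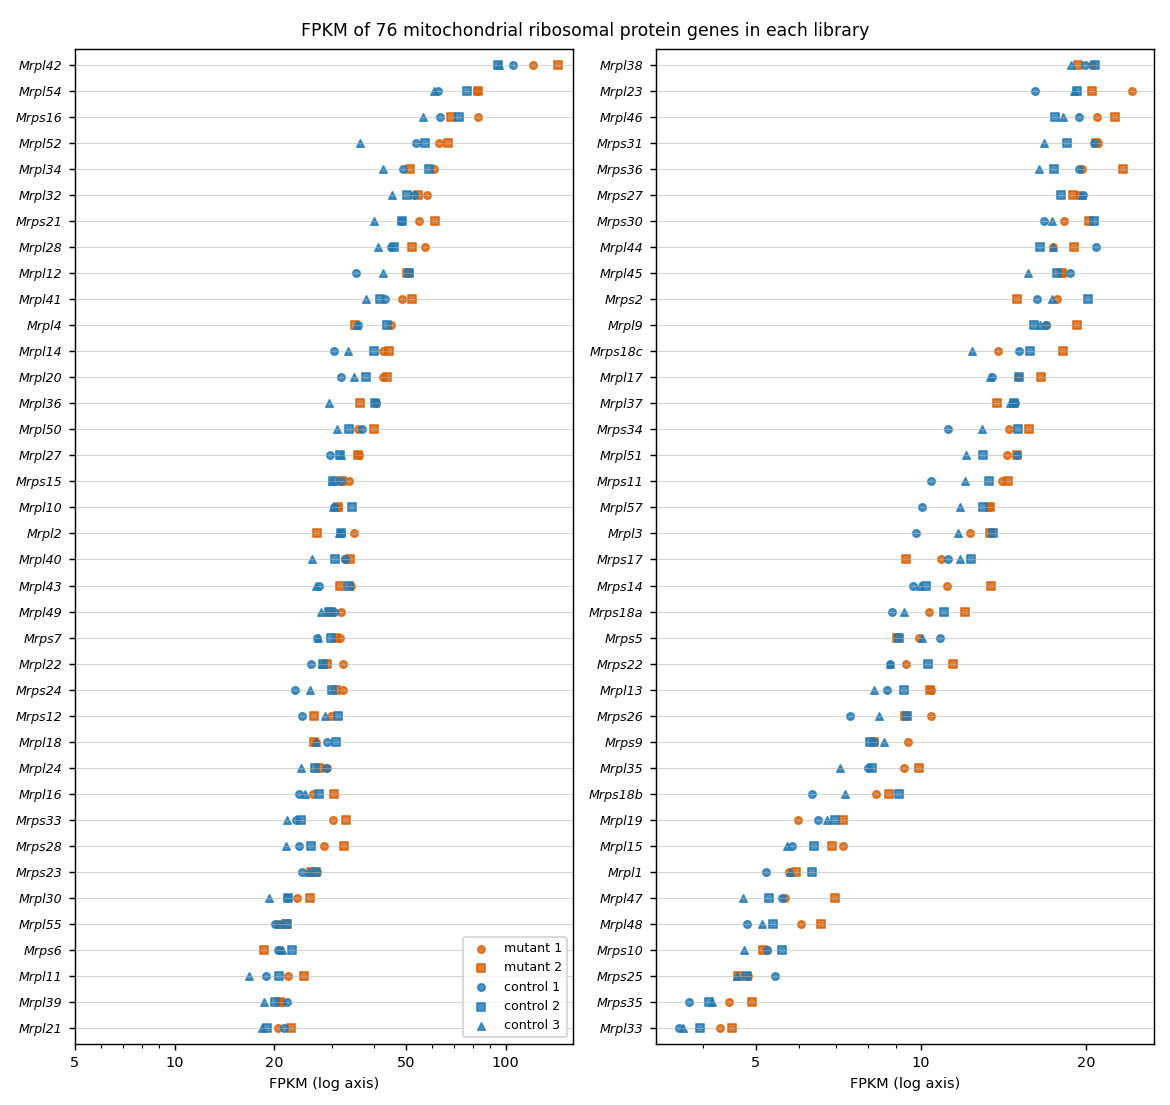
FPKM of each of the 76 mitochondrial ribosomal protein genes in the 5 libraries, on a log axis, ordered from the highest mean (Mrpl42, 112 FPKM) to the lowest (Mrpl33, 4.01 FPKM); orange points are the 2 mutants and blue points the 3 controls. For 33 genes both orange points lie to the right of all blue points, and for 2 genes both lie to the left.

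The question behind the comparison was what changes in the airway when its epithelium loses Prmt5. No mitochondrial ribosomal protein gene passed the test, but most leaned to higher values in the mutants by a small amount. The test was limma on log2(FPKM + 1) over all 12838 genes with at least 1 FPKM in 2 libraries, with a Benjamini-Hochberg adjusted p of 0.05 as the threshold. All 76 members were among these genes. Of them 0 passed. Over all genes 2.36% passed, with 0.989% on the higher side and 1.37% on the lower. An unadjusted limma p under 0.05 was reached by 11 members, all of them higher, where 6.53% of all genes reached it with higher and 12.3% with lower values. Voom on the recovered reads called 0 members too, with 12 at an unadjusted p under 0.05. The log2 change, mutant minus control, was above 0 for 66 of the 76 genes, where this held for 38.9% of all genes. The median log2 change of the members was 0.16 (a 1.12-fold level), with quartiles at 0.06 and 0.24, against a median of -0.06 over all genes. Both mutants lay above all 3 controls for 33 members and below them for 2, where this held for 13.2% and 24.4% of all genes. The sign follows the scaling. With TPM, which shifts the median of all genes to -0.59, the members' median was -0.39 and 0 of 76 were above 0. This was still 0.20 above the median of all genes. TPM divides by summed FPKM, of which the entry Gm23935 alone held 7.69% to 64.8% per library. With that entry left out of TPM, the members' median was 0.10 and 55 were above 0. Median ratio scaling gave 0.24 and 72. Relative to the median of all genes the members stood at 0.22 in the values as deposited. With the summed FPKM of the 4 Y-linked genes (the male share) as a covariate, the members' median was 0.10, with 53 above 0 and 0 at an unadjusted limma p under 0.05. The groups do not overlap in this covariate, so the fit cannot separate it from genotype. Over all genes 55 passed with it, against 303 without. Because the sign follows the scaling, the direction of a single member below is that of the deposited FPKM scale.

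**Figure D2:**
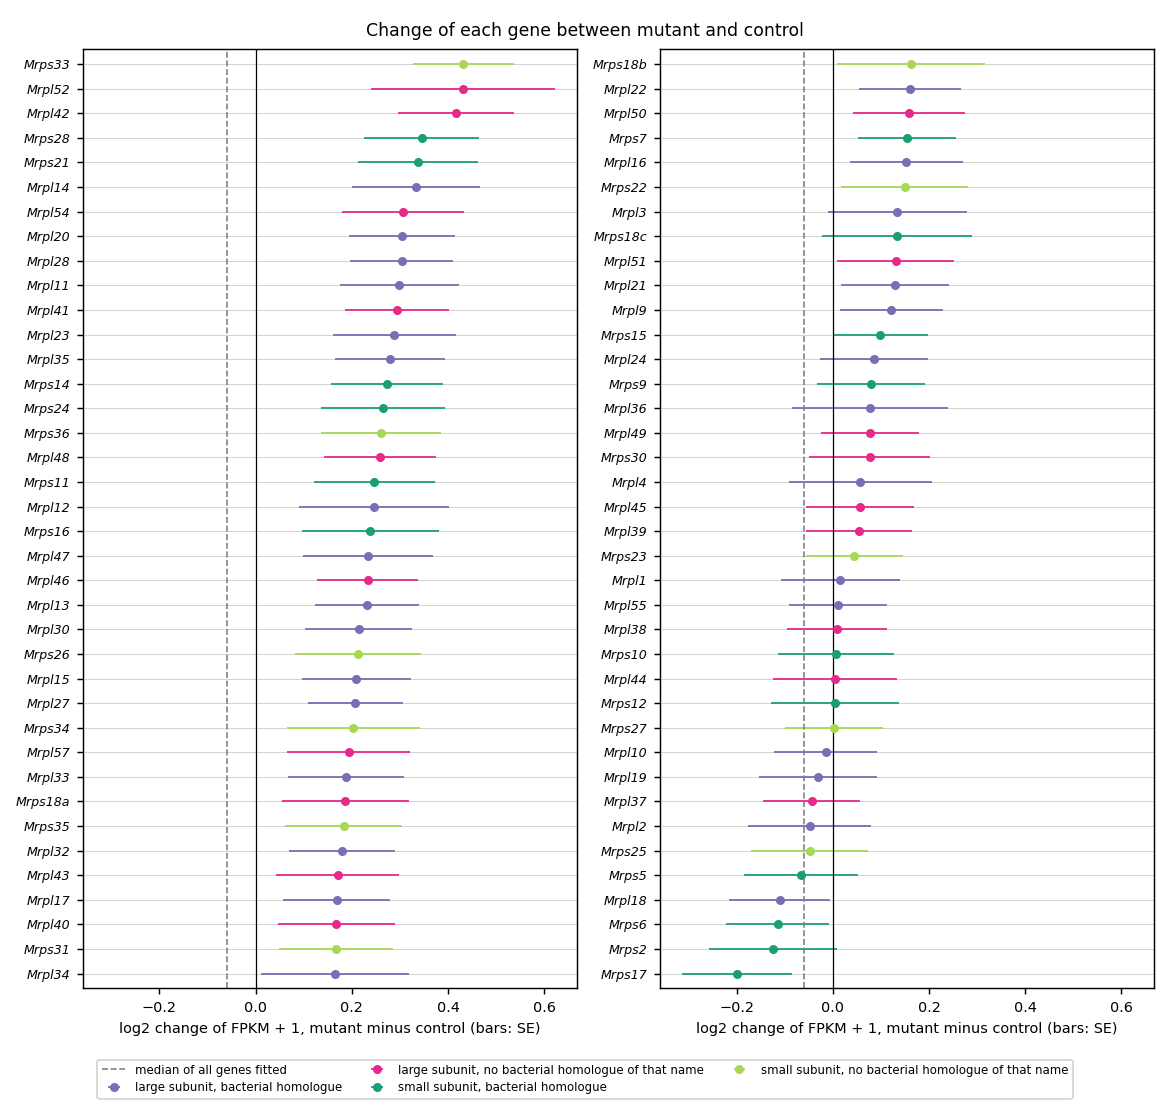
Log2 change of FPKM + 1, mutant minus control, with its SE, for the 76 genes ordered by size. Colours give the subunit and whether the gene is classed as having a bacterial counterpart of that name. The dashed line is the median of all genes tested (-0.06). Changes run from 0.43 for Mrps33 to -0.20 for Mrps17, the 4 classes are mixed along the order, and no gene passed the adjusted threshold.

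The member with the smallest p was Mrps33, a small subunit protein gene with no bacterial counterpart (chromosome 6, 39801804 to 39810988, GRCm38). It was at 30.04 and 32.9 FPKM in mutant tissue, from 789 and 858 reads, and at 23.2, 24.0 and 21.9 FPKM in the controls, from 724, 653 and 665 reads. Both mutants stood above all controls, by more than the spread within either group. The mutant mean of 31.5 ± 2.01 FPKM (SD, n = 2) was 1.36-fold the control mean of 23.1 ± 1.08 FPKM (SD, n = 3), with a limma log2 change of 0.43 (SE 0.10, adjusted p = 0.082). An exact two-sided permutation test of these values gave p = 0.1, which is as low as 2 against 3 libraries can reach, so no gene can pass by that test alone.

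Mrpl42 was at 121 and 144 FPKM in mutant libraries, against 106, 94.8 and 95.6 FPKM in the controls (log2 change 0.42, SE 0.12, limma adjusted p = 0.122). Its groups did not overlap either, but the SD was 16.2 FPKM in the mutants (n = 2) and 5.99 FPKM in the controls (n = 3). Mrpl52, another large subunit gene with no bacterial counterpart, was at 62.9 and 67.2 FPKM for the mutants, against 53.5, 57.0 and 36.2 FPKM in the controls. Control replicate 3 was far below the other controls there, and the log2 change of 0.43 had the largest SE of the 76 genes (0.19, limma adjusted p = 0.282). Mrps28, which encodes a small subunit protein related to bacterial S1, was at 28.4 and 32.5 FPKM in mutant tissue, against 23.8, 25.8 and 21.7 FPKM in the controls (log2 change 0.35, SE 0.12, limma adjusted p = 0.179). Further members with a log2 change above 0.3 were Mrps21, Mrpl14, Mrpl54, Mrpl20 and Mrpl28, 9 in all. Each had both mutants above all controls, where this held for 13.2% of all genes. As the 9 were picked by the size of their change, this lack of overlap is in part built in. Mrpl54 was at 81.9 and 82.6 FPKM in mutant libraries, against 62.6, 76.3 and 60.9 FPKM in the controls. The SD of its values was 8.41 FPKM among the controls and 0.494 FPKM among the mutants.

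At the other end, Mrps17, the counterpart of bacterial S17, was at 10.9 and 9.40 FPKM for the mutants, against 11.2, 12.3 and 11.8 FPKM in the controls (log2 change -0.20, SE 0.11, limma adjusted p = 0.406). Both mutants were below all controls, with mutant replicate 1 close to the lowest control. Mrpl18, the counterpart of bacterial L18, which binds 5S ribosomal RNA, was at 26.7 and 26.4 FPKM in mutant tissue, against 28.9, 30.8 and 26.8 FPKM in the controls (log2 change -0.11, SE 0.11, limma adjusted p = 0.637). Its mutants lay just under control replicate 3. Mrps2 and Mrps6, both small subunit genes with bacterial counterparts, overlapped between the groups, at 17.7 and 14.97 against 16.3 to 20.1 FPKM and at 20.8 and 18.7 against 20.5 to 22.7 FPKM. Their log2 changes were -0.12 and -0.12, each about the size of its SE. Of the 76 members, 23 had a log2 change within 0.1 of 0, Mrps10 and Mrps25 among them at 0.01 and -0.05.

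The pattern was shared by the 2 mutants and in part by control replicate 2, and was not even across the controls. The 76 genes together took 0.349% and 0.353% of the reads of the mutants and 0.312%, 0.333% and 0.30% of those of the controls. The mutant mean share was 0.351% ± 0.00234 (SD, n = 2) and the control mean share 0.315% ± 0.0164 (SD, n = 3), and the groups did not overlap. Mutant replicate 2 held the highest of the 5 values for 32 genes and mutant replicate 1 for 21. Control replicate 3 held the lowest value for 36 genes and the highest for 0, while control replicate 1 held the lowest for 25. Control replicate 2 was closest to the mutants, with 14 highest and 6 lowest values. It was above the control mean for 61 of the 76 genes, about as many as mutant replicates 1 and 2 (62 and 60). Control replicates 1 and 3 were above that mean for 36 and 15. Against the control mean, the median log2 difference of the members was 0.14 and 0.18 in the mutants and -0.01, 0.07 and -0.06 in control replicates 1, 2 and 3. Over all genes tested the same medians were 0.00 and -0.12 in the mutants and 0.01, -0.03 and 0.02 in the controls. The mutants' own values are set against controls they share, so these medians are not independent of each other. Control replicate 3, with the lowest share of these genes, also had the highest muscle sum, 719 FPKM, and the lowest Y-linked sum, and the part of either was not tested. Without control replicate 3, 2 members had an unadjusted limma p under 0.05 in place of 11, and without mutant replicate 1 or 2 there were 6 and 3.

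**Figure D3:**
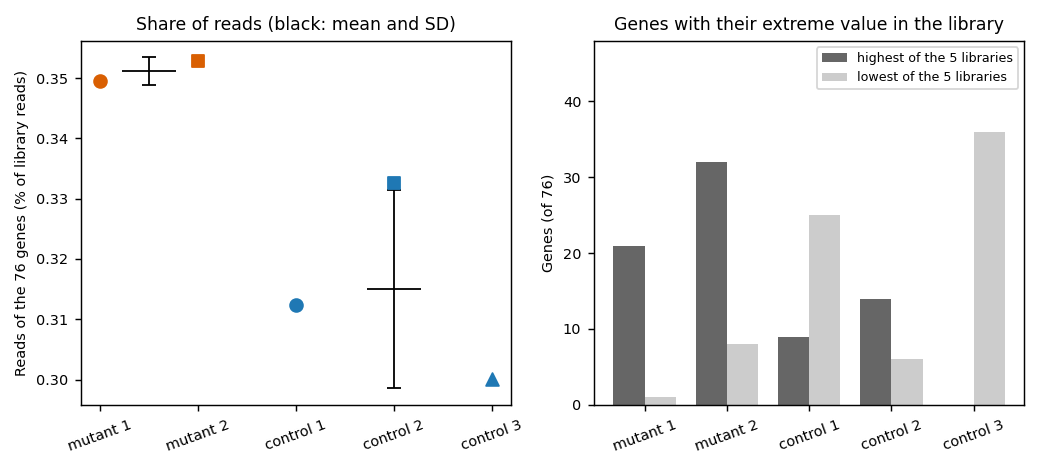
Left, reads of the 76 genes as a percentage of all reads of each library, with the group mean and SD in black (the axis does not start at 0); both mutants, at 0.349% and 0.353%, lie above the controls, at 0.30% to 0.333%. Right, the number of the 76 genes that have their highest or lowest value of the 5 libraries in each library; control replicate 3 holds 36 lowest and 0 highest values.

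Among the controls the members varied little: the coefficient of variation of FPKM over the 3 controls had a median of 8.31% (0.785% to 22.7%), against 11.3% over all genes tested. The members were also higher in level, with a median of 20.1 FPKM against 8.08 FPKM, and the part of level was not tested. The SEs of the 76 log2 changes ran from 0.10 to 0.19, with a median of 0.12.

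Genes of both subunits had positive medians. Of the 27 genes of the small subunit, 22 had a log2 change above 0, and both mutants were above all controls for 11 and below for 1 (13.2% and 24.4% of all genes), with a median log2 change of 0.15. Of the 49 genes of the large subunit, 44 were above 0, with 22 and 1 outside the range of the controls and a median of 0.17. Mrps30 and Mrps18a, named for the small subunit, were counted with the large subunit, where their proteins sit, and Mrps36 was counted with the small subunit by its name. The 46 genes classed as having a bacterial counterpart had a median of 0.16, and the 30 with none of that name 0.17. Mrps18a and Mrps18b are among the 30, though related to Mrps18c among the 46. Mrps17, Mrps2, Mrps6 and Mrpl18, the 4 members at the lower end, are all among the 46. No difference between classes was tested.

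Some members have particular roles. Mrps18a, Mrps18b and Mrps18c are related genes for proteins that sit at different places in the ribosome, and all were low to middling. Mrps18a was at 10.4 and 12.0 FPKM in mutant libraries, against 8.85, 11.02 and 9.33 FPKM in the controls. Mrps18b was at 8.29 and 8.75 against 6.33, 9.13 and 7.28 FPKM, and Mrps18c at 13.8 and 18.2 against 15.1, 15.8 and 12.4 FPKM. The groups of each overlapped, and the log2 changes were 0.19, 0.16 and 0.13 (limma adjusted p = 0.51, 0.636 and 0.715). Mrpl12, which encodes the stalk protein that also binds the mitochondrial RNA polymerase, was at 50.9 and 50.3 FPKM for the mutants, against 35.3, 51.0 and 42.6 FPKM in the controls. Control replicate 2 was as high as the mutants there, and the log2 change was 0.25 (SE 0.16, limma adjusted p = 0.456). Mrps36, whose product has been assigned to the 2-oxoglutarate dehydrogenase complex in place of the ribosome, was at 19.7 and 23.4 FPKM in mutant tissue, against 19.4, 17.5 and 16.4 FPKM in the controls (log2 change 0.26, limma adjusted p = 0.315). Mrps30 was at 18.3 and 20.3 against 16.8, 20.7 and 17.4 FPKM, with a log2 change of 0.08.

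The symbol rule misses 6 known subunit genes, and they spanned much the same range. Of these 6, 0 passed and 5 had a log2 change above 0, with a median of 0.17. Both mutants were above all controls for 3 and below for 1, where this held for 13.2% and 24.4% of all genes. Chchd1, a small subunit gene, was at 112 and 130 FPKM in mutant libraries, against 87.8, 97.4 and 81.4 FPKM in the controls. Its log2 change of 0.44 (SE 0.13, limma adjusted p = 0.117) was larger than that of any of the 76 members. Aurkaip1, also of the small subunit, was at 38.7 and 43.9 against 32.0, 38.6 and 26.5 FPKM, its lower mutant just above the highest control. Ict1, which encodes a peptidyl-tRNA hydrolase built into the large subunit, Gadd45gip1 and Dap3, a GTP-binding subunit, had log2 changes of 0.21, 0.13 and 0.05. Ptcd3, a subunit with RNA-binding repeats, was at 11.6 and 11.5 FPKM for the mutants, against 12.7, 12.2 and 12.3 FPKM in the controls, the 1 gene of these with both mutants below (log2 change -0.10, limma adjusted p = 0.669).

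Genes that build or serve the mitochondrial ribosome had medians nearer to 0 than the members, a difference that was not tested. The median over all genes was -0.06. The genes of these lists were also longer and lower in level than the members. Medians of the lists below ran from 5.66 to 9.58 FPKM and from 2897 to 4838.5 bases of exon. The members had medians of 20.1 FPKM and 1812.5 bases, and the part of length and level was not tested. Of 25 assembly and ribosomal RNA modification factors, 0 passed, 10 had a log2 change above 0 and the median was -0.03. Both mutants were above all controls for 5 and below for 6, that is 20% and 24% of the list, near the 13.2% and 24.4% of all genes. The share above 0 was 40%, near the 38.9% of all genes. The nearest to the threshold was Mpv17l2, which encodes an inner membrane protein that helps in assembly, at 9.50 and 8.496 FPKM in mutant tissue, against 12.4, 12.7 and 13.2 FPKM in the controls (log2 change -0.46, SE 0.11, limma adjusted p = 0.0752). It was the 1 factor with an unadjusted p under 0.05. Of 14 translation factors 0 passed, with 8 above 0 (57.1%, against 38.9% of all genes) and a median of 0.03. Tufm, the elongation factor that brings charged tRNAs to the ribosome, overlapped at 53.6 and 45.8 against 49.5, 50.8 and 44.9 FPKM. Of 17 mitochondrial aminoacyl-tRNA synthetases 0 passed, with 8 above 0 (47.1%) and a median of -0.02. Of 8 genes of mitochondrial DNA transcription and replication 0 passed, with 6 above 0 (75%) and a median of 0.05. Tfam, which packages mitochondrial DNA and starts its transcription, was at 17.1 and 16.2 FPKM in mutant libraries, against 15.3, 15.3 and 14.8 FPKM in the controls (log2 change 0.13, limma adjusted p = 0.54). Of 10 regulators of nuclear genes for mitochondria 0 passed, with 6 above 0 (60%), 4 below 0 and a median of 0.03. Both mutants were above all controls for 2 (20%, against 13.2% of all genes) and below for 0. These 2 were Myc, at 30.6 and 26.3 against 15.1, 25.2 and 23.3 FPKM, and Mycn, at 13.4 and 13.2 against 10.7, 12.5 and 7.99 FPKM. Their adjusted limma p-values were 0.32 and 0.339. Nrf1, Gabpa, Gabpb1 and Yy1 overlapped between the groups, with log2 changes of 0.03, -0.12, -0.08 and -0.17. Of 15 genes of mitochondrial DNA itself, sought by symbol, 0 were found among the entries, so they could not be analysed.

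Cytosolic ribosomal protein genes and genes of the respiratory chain were also mostly above 0. Of 83 cytosolic ribosomal protein genes tested, 2 passed, both higher, where 0.989% of all genes passed as higher. A log2 change above 0 was seen for 83, against 38.9% of all genes, and the median was 0.43. Both mutants were above all controls for 73 of them (88.0%, against 13.2% of all genes). These genes have many processed copies, so their levels are less certain. Of 82 genes of the respiratory chain and ATP synthase, 0 passed, 70 were above 0 and the median was 0.20. Both mutants were above all controls for 41 of these (50%, against 13.2% of all genes). The differences between these groups and the mitochondrial ribosomal protein genes were not tested.

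**Figure D4:**
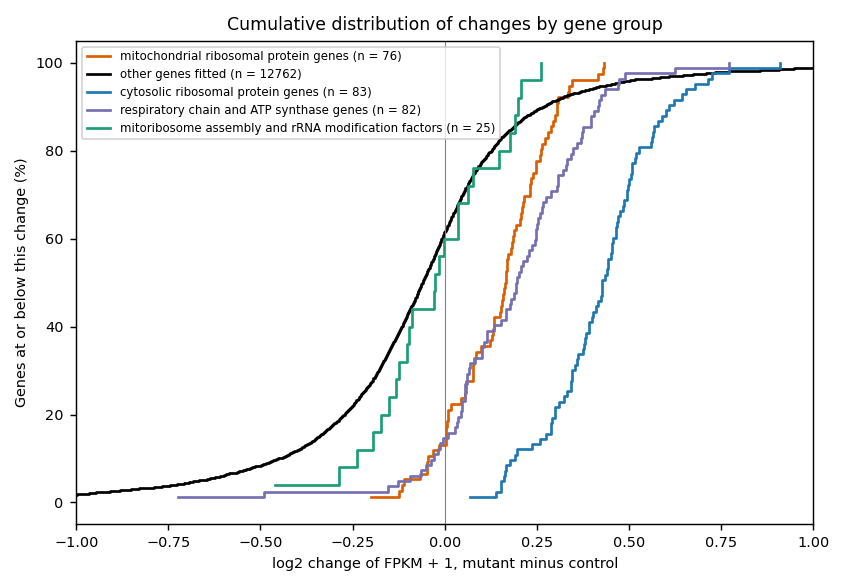
Cumulative share of genes at or below each log2 change of FPKM + 1, mutant minus control, for mitochondrial ribosomal protein genes, the other genes tested, cytosolic ribosomal protein genes, respiratory chain and ATP synthase genes, and mitochondrial ribosome assembly factors. The orange curve (median 0.16) lies between the assembly factors (median -0.03) and the cytosolic ribosome (median 0.43), close to the respiratory chain (median 0.20).

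Gene length moved with the change over all genes. Among genes that are not members, the median log2 change was 0.06 below 1000 bases of exon, -0.00 from 1000 to 2000 bases, -0.05 from 2000 to 4000 bases and -0.08 from 4000 bases on. The members in the same length ranges had medians of 0.27 (12 genes), 0.13 (27 genes), 0.16 (18 genes) and 0.13 (19 genes), each above that of the other genes of like length. All 12 of the shortest members and 14 of the 19 longest had a log2 change above 0. Level moved with the change of the other genes too, whose median was -0.09 from 1 to 10 FPKM, -0.05 from 10 to 30 FPKM, -0.01 from 30 to 100 FPKM and 0.09 from 100 FPKM on. The members had medians of 0.17 (16 genes), 0.13 (39 genes) and 0.19 (20 genes) in the first 3 ranges, and the 1 member in the highest was Mrpl42. Whether length or level has a part in the members' lean was not tested beyond these ranges.

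**Figure D5:**
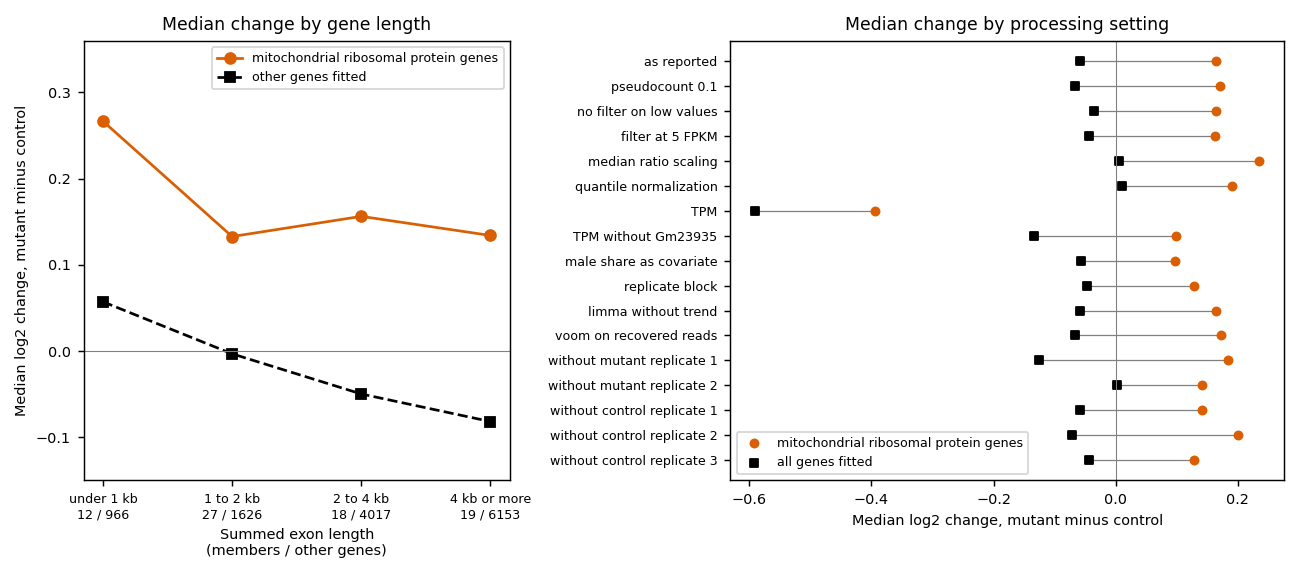
Left, median log2 change by summed exon length for the members (orange) and the other genes tested (black), with the number of each under the axis; the members lie above the others in all 4 ranges. Right, median log2 change of the members and of all genes under each processing setting; both move left with TPM, to -0.39 and -0.59, and the members lie to the right of all genes in every setting shown.

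Promoters of the members were read from RefSeq (GRCm38.p6), as 250 bases before to 50 bases after the annotated start, for 67 of the 76 genes. They were searched on both strands for 3 motifs tied to nuclear genes for mitochondria: the NRF1 type, printed in capitals in Mrpl32 below, CCGGAAG of the ETS type, which GABPA binds, and AAGATGGCG of the YY1 type. The end of CCGGAAG and the start of AAGATGGCG share letters, so 1 stretch can hold both, which was the case in 0 members. Members and other genes tested were counted once per gene, as holding a motif if any of their starts did. The promoters of the whole table were counted singly, so their shares are in another unit. The NRF1 type was in 13 of 67 members (19.4%), in 11.3% of other genes tested and in 4.60% of all 32851 promoters of the table. The ETS type was in 24 members (35.8%), in 19.2% of other genes tested and in 8.86% of all promoters. The YY1 type was in 8 members (11.9%), in 3.54% of other genes tested and in 1.40% of all promoters. At least 1 of the 3 was in 39 members (58.2%), against 30.2% of other genes tested. These are matches of letters and no measure of binding. The median log2 changes of members with and without each motif were 0.18 and 0.16 for the NRF1 type, 0.17 and 0.15 for the ETS type, and 0.22 (8 genes) and 0.16 for the YY1 type, and these differences were not tested.

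Shown are the promoters of the 3 members with the largest log2 changes, of Mrpl32 as an example of the NRF1 type, and of Mrps17, the lowest, which holds none of the motifs. Sequences run 5′ to 3′ along the gene, with the motif in capitals. Mrps33 (chr6:39810887-39811186, minus strand) holds the ETS type after its start, Mrpl42 (chr10:95501900-95502199, minus strand) the YY1 type after its start, and Mrpl52 (chr14:54426659-54426958, plus strand) the ETS type on either side of it. Mrpl32 (chr13:14612988-14613287, minus strand) was at 57.8 and 54.5 FPKM for the mutants, against 52.9, 50.3 and 45.5 FPKM in the controls. Mrps17 lies at chr5:129715247-129715546 on the plus strand.
Mrps33: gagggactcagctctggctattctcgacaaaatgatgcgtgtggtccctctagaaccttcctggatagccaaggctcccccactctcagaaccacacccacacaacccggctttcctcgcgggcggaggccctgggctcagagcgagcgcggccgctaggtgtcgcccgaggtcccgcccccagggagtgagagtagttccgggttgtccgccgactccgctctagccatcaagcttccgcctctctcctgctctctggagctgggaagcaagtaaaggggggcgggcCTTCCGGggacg
Mrpl42: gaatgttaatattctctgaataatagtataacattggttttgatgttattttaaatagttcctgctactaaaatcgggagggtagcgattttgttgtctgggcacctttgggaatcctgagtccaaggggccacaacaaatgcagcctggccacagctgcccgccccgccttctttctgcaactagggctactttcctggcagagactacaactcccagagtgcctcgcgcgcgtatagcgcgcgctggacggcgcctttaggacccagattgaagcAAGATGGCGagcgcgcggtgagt
Mrpl52: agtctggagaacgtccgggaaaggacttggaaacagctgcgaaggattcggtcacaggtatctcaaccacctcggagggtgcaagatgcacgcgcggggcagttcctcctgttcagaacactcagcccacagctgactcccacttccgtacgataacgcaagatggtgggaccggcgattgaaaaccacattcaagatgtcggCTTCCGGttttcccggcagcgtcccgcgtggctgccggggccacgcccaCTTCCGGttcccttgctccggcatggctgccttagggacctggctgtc
Mrpl32: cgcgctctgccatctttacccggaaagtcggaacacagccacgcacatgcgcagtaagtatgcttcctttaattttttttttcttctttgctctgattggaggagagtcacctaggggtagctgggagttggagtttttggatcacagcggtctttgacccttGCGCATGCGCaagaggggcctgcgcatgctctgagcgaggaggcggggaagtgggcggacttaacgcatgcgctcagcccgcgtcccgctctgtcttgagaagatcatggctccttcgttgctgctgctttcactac
Mrps17: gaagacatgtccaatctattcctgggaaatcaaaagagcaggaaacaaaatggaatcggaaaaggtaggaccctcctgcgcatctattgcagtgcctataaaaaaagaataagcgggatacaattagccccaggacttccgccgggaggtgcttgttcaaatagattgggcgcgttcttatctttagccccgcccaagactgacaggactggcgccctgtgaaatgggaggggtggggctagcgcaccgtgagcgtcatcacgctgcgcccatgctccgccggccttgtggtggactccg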

How the data were processed

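The values deposited by the authors are FPKM, which scale reads by gene length and by library size, for 19699 entries in 5 libraries, as the table's name says. GRCm38 (mm10) is the build per the submitters' processing notes. For the aligner, counter, annotation, filters and strand use, the sources used here give nothing, so reads of overlapping genes (26 of the 76 members overlap another annotated gene, 23 of them one on the other strand) cannot be told apart. The labels carry a treatment text on cultured fat cells that does not describe these embryos and was not used. No column was without a sample.

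FPKM values were whole multiples of 1 read, at a tolerance of 1e-06, for 13963 of the 19699 entries by annotated length. For the other 5736 the unit was fitted to the same values, so whole reads follow by construction. GENCODE M21 exon lengths matched 56 members exactly; for the other 20, length was the common denominator of the 5 values, so their reads hold up to a shared factor. Of the reads, 97.5% to 97.6% lay in listed genes. The test was limma 3.58.1 in R 4.3.3 (lmFit, eBayes with trend, two-sided) on log2(FPKM + 1), with no covariate; the pseudocount of 1 makes the change of low genes look smaller. The filter kept genes that reached 1 FPKM in 2 or more libraries, and p-values were adjusted over all of them by Benjamini and Hochberg's method. The steps were tested on simulated reads, in which changed genes moved by more than any member did and the spread was fixed. That does not show how the steps perform on changes as small as those of the members. Voom used the recovered reads. Alternatives are in the closing section. Gene positions are from GENCODE M21 (GRCm38).

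The members and lists were chosen with earlier results of these data known. The rule for named members gives the 4 largest changes in each direction, since 0 passed, the 4 highest and 4 lowest by level, and Mrps18a, Mrps18b, Mrps18c, Mrps30, Mrps36 and Mrpl12. It adds Prmt5, Tufm, Tfam, Lars2 and the 6 subunits under other symbols. Other genes named, such as Mrps21, Mrpl14, Mrpl20, Mrpl28, Mrpl32, Mrpl50, Mpv17l2, Myc and Mycn, were chosen after their values were seen. Ranges of length and level, the promoters shown and the neighbouring genes were also chosen then. Of 27 assembly factors 25 were found, 1 of them (Mrm2) under the older symbol Ftsj2, and of 9 genes of mitochondrial DNA transcription and replication 8.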

Additional observations from a re-analysis of the deposited data

How the results depend on the processing

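No member passed the threshold under any of the 16 alternatives, where the smallest adjusted p of a member was 0.0707 (Mrps33 with a filter at 5 FPKM). The number at an unadjusted p under 0.05, 11 as reported, was 21 with median ratio scaling, 18 with quantile normalization, 0 with TPM, 3 with TPM without Gm23935, 0 with the male share as a covariate, 1 with the replicate block, 7 without the trend, and 2 to 13 leaving out 1 library, where a lone mutant is assumed to vary like the controls. The members' median log2 change was 0.24 with median ratio scaling, -0.39 with TPM, 0.10 with TPM without Gm23935 and 0.10 with the male share, and 0.13 to 0.20 leaving out 1 library. With TPM 0 members were above 0 in log2 change and 0 had both mutants above all controls; with Gm23935 left out of TPM these were 55 and 22, and leaving out 1 library gave 61 to 65 and 33 to 48. The members' median relative to that of all genes was 0.14 to 0.31 over the alternatives. Over all genes, median ratio scaling called 148 higher and 147 lower, against 127 and 176 as reported, and of 303 calls as reported there were 602 with voom, 69 without a filter, 67 with TPM, 55 under the male covariate, 21 without mutant replicate 1 and 12 without mutant replicate 2. The causes were not tested.

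Of 477 single-gene values under alternatives 41 had the other sign. With TPM these were Mrps33 at -0.13, Mrpl52 at -0.14, Mrpl42 at -0.15, Mrps28 at -0.21, Mrpl54 at -0.26, Mrps16 at -0.33, Mrpl33 at -0.30, Mrps35 at -0.31, Mrps10 at -0.51, Mrps18a at -0.35, Mrps18b at -0.36, Mrps18c at -0.42, Mrps30 at -0.48, Mrps36 at -0.30, Mrpl12 at -0.32, Dap3 at -0.49, Chchd1 at -0.13, Aurkaip1 at -0.21, Gadd45gip1 at -0.42, Ict1 at -0.34, Tufm at -0.53 and Tfam at -0.42. Mrps25 was at 0.013 with median ratio scaling and 0.042 with quantile normalization. TPM without Gm23935 gave Mrps10 -0.060, Dap3 -0.013 and Tufm -0.035. The male share gave Mrps10 -0.10, Mrps18c -0.028, Dap3 -0.091 and Tufm -0.11. Leaving out 1 library at a time, Mrps25 ran from -0.088 (without control replicate 3) to 0.0066 (without control replicate 1), and Mrps10 from -0.045 (without control replicate 3) to 0.051, below 0 also without mutant replicate 1. Without mutant replicate 1 Dap3 was at -0.0066, Gadd45gip1 at -0.080 and Tufm at -0.076, and the highest values, without mutant replicate 2, were 0.11, 0.33 and 0.15. Tufm was below 0 without control replicate 3 too. Mrps18c ran from -0.054 without mutant replicate 2 to 0.32 without mutant replicate 1.

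The replicate numbers are shared by title only, and deviations of same-numbered mutant and control libraries correlated at -0.07 and 0.02. The replicate block, in which control replicate 3 has no partner, gave 0 members passing, a median of 0.13, Mrps10 at -0.045 and Tufm at -0.016. Lars2 passed there alone (log2 change 1.52, limma adjusted p = 0.0477), against adjusted p-values of 0.156 to 0.933 in the other settings.

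Each group holds few libraries, and SEs of 0.10 to 0.19 limit what can be called at changes of this size.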

Other observations

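Many of these genes share a start region with another gene. In the GENCODE annotation, 18 of the 76 members (23.7%) have a protein-coding gene on the other strand whose start lies upstream within 1000 bases, against 9.0% of the other protein-coding genes tested. Of these neighbours, 17 were tested and are not members themselves, and 0 passed. Their median log2 change was -0.02, 8 were above 0, and both mutants were above all controls for 3 and below for 1. Over all genes tested, 38.9% were above 0, 13.2% had both mutants above and 24.4% both below. Fau, which encodes a ubiquitin-like protein fused to a cytosolic ribosomal protein and starts beside Mrpl49, had the largest of these changes at 0.30 (limma adjusted p = 0.232). Ska3, a mitosis gene beside Mrpl57, was at 0.28 (limma adjusted p = 0.347). Eme2, beside Mrps34, was at -0.26 (limma adjusted p = 0.487). These neighbours were picked by position, and their difference from the members was not tested.

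Lars2, the mitochondrial leucyl-tRNA synthetase entry, was at 767 and 3563 FPKM for the mutants, against 174, 1887 and 509 FPKM in the controls, in the same order of libraries as the entry Gm23935, which took 30.1% and 64.8% of the summed FPKM in the mutants and 7.69%, 51.3% and 22.6% in the controls. Its level was above that of each of the 16 other synthetases (the highest mean of those was 12.6 FPKM, for Rars2). The groups overlapped.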
